A study of Mus musculus with 9 samples.

Results

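This account covers 38 imprinted genes in the gastrocnemius, a calf muscle, of newborn mice. The genes were taken by symbol from a fixed list, and all 38 were found among the 55471 genes counted. By general knowledge, 21 of them are expressed from the paternal and 17 from the maternal copy. RNA was sequenced from 5 Shank3Δ11(−/−) mice, KO1 to KO5, which carry a homozygous deletion of exon 11 of Shank3 in every tissue, and from 4 wildtype Shank3(+/+) mice, WT1 to WT4, with 1 library per mouse. All are labelled C57BL/6 and were taken at postnatal day 0 to 1, with no treatment named. The study's methods derive the knock-outs from heterozygous C57BL/6JRj matings and name the wildtype mice as C57BL/6. Whether mice of the same litter were used is not given in the sources used here.

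An imprinted gene is transcribed mainly or solely from the copy inherited from one parent. The choice is set by DNA methylation laid down in the egg or sperm at a control region, and genes under one such region lie together in a domain. Many imprinted genes act on fetal growth, the paternally expressed ones often promoting and the maternally expressed ones often limiting it, and many are shut down in muscle after birth. The counts carry no information on the allele, so the parental origin given here is background and was not measured. For several members, among them Ube3a, Gnas, Grb10, Kcnq1 and Trappc9, imprinting is known to be limited to certain tissues or transcripts.

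The libraries held 26444372 to 40471957 counts (median 31435732). The study's methods left KO2 and KO4 out for insufficient reads. Among the deposited totals, which cover reads assigned to genes, KO4 had the highest, KO5 the lowest and KO2 28211941. Following the methods, genotypes were compared first as KO1, KO3 and KO5 against the 4 Shank3(+/+) mice and then with all 9 mice. Markers of muscle fibres summed to between 57527 and 65653 CPM (counts scaled to library size, on 1 scale for the 9 mice), whereas 4 of 6 neuronal markers lay below 1 CPM on average. Shank3 itself was counted at 25.7 to 35.0 CPM in Shank3Δ11(−/−) and at 32.4 to 38.5 CPM in Shank3(+/+) mice. Since reads from all exons are added up, these values do not check the deletion of exon 11. Adipocyte markers summed to 1128 CPM in KO5 against at most 403 CPM in any other mouse, and Schwann cell markers to 439 CPM against at most 216. KO1 stood apart in erythroid markers, at 2539 CPM against at most 958, and KO4 in cartilage and bone markers, at 264 CPM against at most 123, in tendon markers, at 647 against at most 428, and in fibroblast markers, at 21197 against at most 17559. WT4 stood apart in epidermal markers, at 56.2 CPM against at most 32.5. Xist, which is transcribed from the inactive X chromosome, was at 0.136 to 3.23 CPM in 5 mice and at 619 to 925 CPM in WT3, WT4, KO3 and KO5.

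H19 dominated the imprinted transcripts. This maternally expressed, non-coding RNA of distal chromosome 7 (ENSMUSG00000000031, chr7:142575529-142578143, minus strand, mm10) is abundant in fetal muscle and is the host of a microRNA. It was counted at 18928 CPM in KO1, 17661 in KO2, 21463 in KO3, 23326 in KO4 and 20079 in KO5, and at 19873, 18989, 20687 and 21265 CPM in WT1 to WT4. The 9 values lay within 1.32-fold of each other, and the genotypes overlapped. H19 took 1.84% to 2.19% of all counts in a library. It held the highest count of any gene in 7 mice and the second highest in KO1 and KO2, where skeletal actin Acta1 stood above it. Per kilobase of exon, the scale used here to compare genes, H19 lay at 8233 ± 680 CPM (SD, n = 9) and ranked between 2 and 7 among all genes. Because the tissue was taken in bulk, a lower level could mean fewer cells that express a gene or less RNA in each of them, and these cannot be told apart.

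The microRNA in the first exon of H19 is shown here because its host is the most abundant member. Mature microRNAs were not measured in these libraries. The sequences are those of RefSeq (GRCm38.p6), 5′ to 3′, with the seed, bases 2 to 8, in capitals. They lie at chr7:142577112-142577133 and chr7:142577078-142577099 on the minus strand.
miR-675-5p: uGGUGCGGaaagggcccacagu
miR-675-3p: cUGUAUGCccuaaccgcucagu

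The 38 members together took 4.53% to 5.18% of all counts. The 17 maternally expressed genes accounted for 3.66% to 4.34%, of which H19 made up about as much as the other 16 (1.76% to 2.15%). The 21 paternally expressed genes took 0.768% to 0.949%. These shares weigh long transcripts more than short ones. The length used per kilobase takes all annotated exons of a gene together, which is 11186 bases for Gnas and 2039 for Cdkn1c. A gene that uses only part of its annotated exons lies too low on this scale, so the order depends on the annotation. In CPM, Gnas was at 1954 on average and Cdkn1c at 1810. Per kilobase, the order after H19 was Cdkn1c at 887 ± 162 CPM, Dlk1 at 560 ± 57.1, Meg3 at 476 ± 74.2, Mest at 282 ± 35.2, Rian at 240 ± 31.7, Gnas at 175 ± 14.1, Grb10 at 141 ± 15.9, Plagl1 at 127 ± 19.1 and Peg3 at 119 ± 17.2 (SD, n = 9). H19 lay 9.28-fold above Cdkn1c. Igf2, a paternally expressed gene that is not among the 38, lay at 895 ± 92.9 CPM per kilobase (SD, n = 9), level with Cdkn1c. The ranges of the 9 mice did not overlap between H19 and Cdkn1c, Cdkn1c and Dlk1, Meg3 and Mest, or Rian and Gnas. Neighbours such as Dlk1 and Meg3, Mest and Rian, or Plagl1 and Peg3 overlapped, although Mest exceeded Rian within each of the 9 mice.

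**Figure D1:**
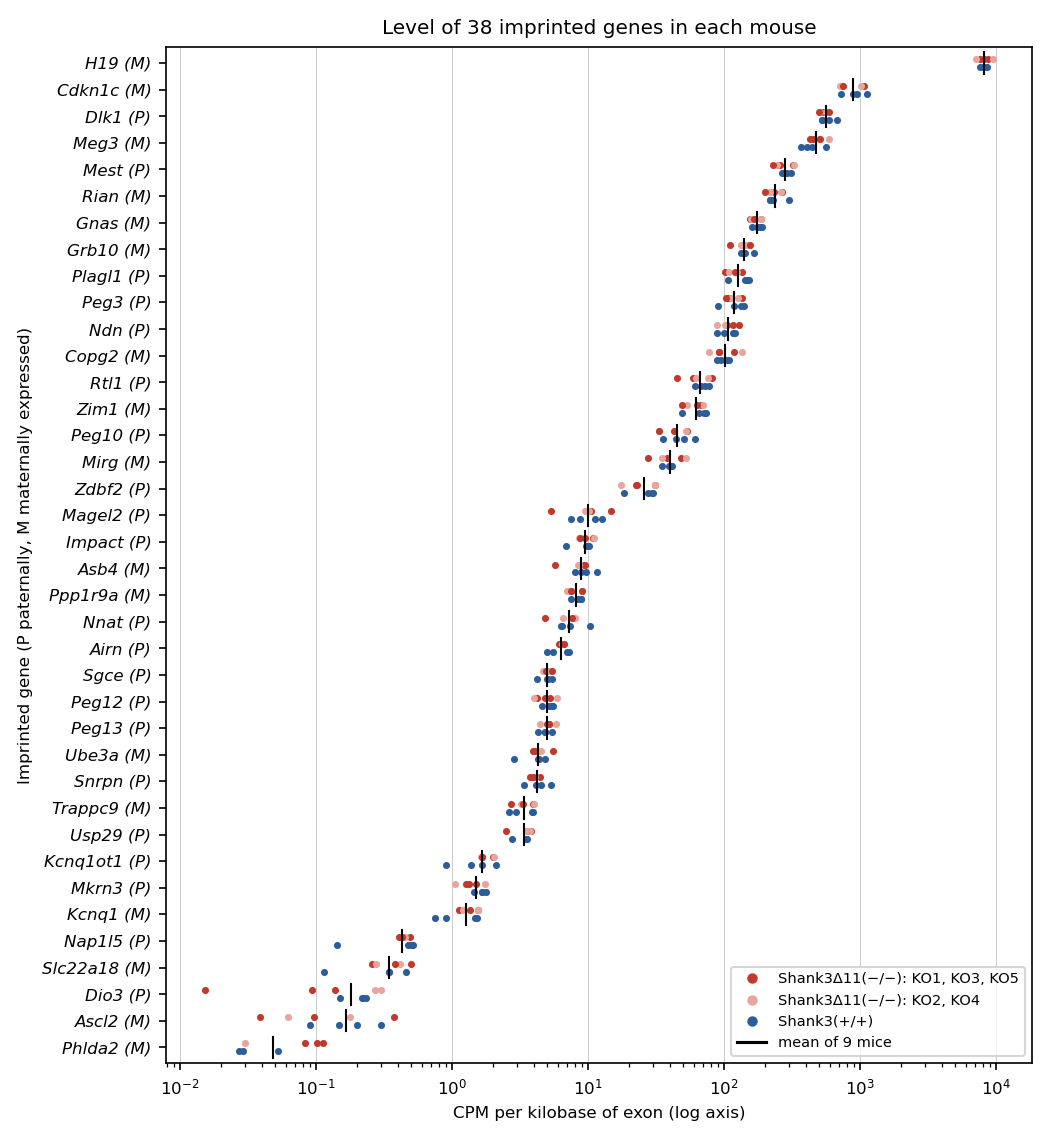
Level of each of the 38 imprinted genes in CPM per kilobase of exon (log axis), 1 point a mouse, with the mean of 9 mice as a bar; a count of 0 (Phlda2 in KO4 and WT3) has no point. H19, at 8233 on average, stands apart from the next of the 38 genes, Cdkn1c, at 887.

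The Dlk1-Dio3 domain of chromosome 12 came second, with 1.52% to 1.83% of all counts from its 6 members. On its paternal side, Dlk1, a membrane protein of the Notch ligand family that is expressed in fetal muscle and its progenitors (chr12:109452823-109463336), was at 3010, 3209, 3351, 2907 and 2843 CPM in KO1 to KO5 and at 2990, 3361, 2962 and 3868 CPM in WT1 to WT4. WT4 was the highest, and the other 8 mice lay close together. Rtl1, a retrotransposon-derived protein needed in fetal muscle and placenta, ranged from 286 CPM in KO5 to 522 CPM in KO3. Dio3, the deiodinase that inactivates thyroid hormone, was below 1 CPM in every mouse.

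On the maternal side of that domain lie 3 long non-coding RNAs, which are generally held to come from one continuous stretch of transcription. Meg3 (chr12:109541001-109571726) was at 7851, 9008, 9279, 10803 and 8244 CPM in KO1 to KO5 and at 8106, 10227, 6636 and 7379 CPM in WT1 to WT4. Rian (chr12:109603940-109661716), the host of many small nucleolar RNAs, was at 4235, 3957, 4908, 4788 and 3683 CPM in KO1 to KO5 and at 4207, 4021, 5496 and 4016 CPM in WT1 to WT4. WT3 combined the lowest Meg3 with the highest Rian of the 9 mice. The ratio of Rian to Meg3 within a mouse was 0.828 in WT3 and between 0.393 and 0.544 in the others. Mirg, a host of microRNAs further along, ranged from 201 CPM in KO5 to 382 CPM in KO4, and its ratio to Rian from 0.0543 in WT3 to 0.0797 in KO4.

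Within the annotated genes of 7 members lie 54 mature microRNAs of RefSeq, of which Mirg holds 26, Rtl1 13 and Rian 6. Of the 13 within Rtl1, 11 are on the strand opposite to it, on the maternally expressed side. The sources used here do not say whether the counting used the strand, so reads of precursors opposite to Rtl1 cannot be told apart from Rtl1. A few are printed to show what these hosts carry, with the seed in capitals: miR-770-5p of Meg3 (chr12:109563710-109563731), miR-370-3p of Rian (chr12:109618305-109618326), miR-127-3p and miR-136-5p opposite to Rtl1 (chr12:109592888-109592909 and chr12:109595331-109595352), and miR-453 and miR-496a-5p of Mirg (chr12:109735669-109735692 and chr12:109739132-109739152). All are on the plus strand. Of the 54, the last 2 are those that share a seed, GGUUGCC.
miR-770-5p: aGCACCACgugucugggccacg
miR-370-3p: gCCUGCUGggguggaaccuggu
miR-127-3p: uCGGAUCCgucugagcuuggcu
miR-136-5p: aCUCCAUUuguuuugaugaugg
miR-453: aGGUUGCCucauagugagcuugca
miR-496a-5p: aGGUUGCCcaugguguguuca

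Among the members linked to growth, Cdkn1c, which encodes the cell cycle inhibitor p57 and is maternally expressed (chr7:143458339-143461050), was at 1505, 1449, 2178, 2083 and 1522 CPM in KO1 to KO5 and at 1491, 1820, 1937 and 2300 CPM in WT1 to WT4. KO3, KO4 and WT4 were high, and KO1, KO2, KO5 and WT1 were low, so that the split did not follow the genotype. Grb10, an adaptor that dampens insulin and IGF signalling (chr11:11930508-12038683), was at 1251, 1344, 1427, 1215 and 1014 CPM in KO1 to KO5 and at 1215, 1277, 1527 and 1302 CPM in WT1 to WT4. Plagl1, a zinc finger factor that is known to regulate other imprinted genes and is paternally expressed (chr10:13060504-13131694), was at 1070, 970, 792, 853 and 938 CPM in KO1 to KO5 and at 1161, 1203, 1112 and 842 CPM in WT1 to WT4. Grb10 was lowest in KO5, and Plagl1 was high in WT1, WT2 and WT3, while WT4 lay among the Shank3Δ11(−/−) mice.

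Of the other abundant members, Mest, a paternally expressed hydrolase-like protein of mesoderm (chr6:30723547-30748465), was at 1024, 978, 1281, 1301 and 908 CPM in KO1 to KO5 and at 1049, 1078, 1239 and 1158 CPM in WT1 to WT4. Peg3, a paternally expressed zinc finger protein found in muscle progenitors (chr7:6703892-6730431), was at 1812, 1700, 1424, 1505 and 1376 CPM in KO1 to KO5 and at 1883, 1794, 1588 and 1199 CPM in WT1 to WT4. Gnas, a complex locus whose main product is the stimulatory G protein subunit (chr2:174284320-174346744), was at 1755, 1770, 2089, 2099 and 1878 CPM in KO1 to KO5 and at 1794, 2077, 1977 and 2150 CPM in WT1 to WT4. Gnas was among the steadiest members, with 1.23-fold between its lowest and highest mouse. Its exons share bases with antisense transcripts, as do those of Copg2 and Mest, whose ends overlap over 912 bases. Of the exon bases of Cdkn1c, 30.7% lie opposite to exons of the antisense gene Gm44732, and 27.3% of those of Snrpn lie in exons of Gm38393 on the same strand. Counts at such overlaps are uncertain, and with them the level of Cdkn1c per kilobase and its distance from H19.

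At intermediate levels per kilobase lay Ndn (108 ± 14.1 CPM), a MAGE family protein, Copg2 (102 ± 17.9), a coat protein subunit, Rtl1 (67.4 ± 11.6), Zim1 (62.8 ± 9.48), a zinc finger gene next to Peg3, Peg10 (45.5 ± 9.99), a retrotransposon-derived gene, Mirg (39.9 ± 7.40) and Zdbf2 (25.7 ± 5.43), a zinc finger gene of chromosome 1. Below a gap of 2.55-fold between Zdbf2 and Magel2, in which the mice did not overlap, the 16 members from Magel2 to Kcnq1 lay between 10.1 ± 2.78 and 1.27 ± 0.296 CPM per kilobase (SD, n = 9). They include genes best known from the brain. Snrpn, a splicing protein gene of the Prader-Willi region, was at 7.35 to 11.6 CPM, its neighbours Mkrn3 at 2.68 to 4.52 and Peg12 at 10.7 to 15.6, and the ubiquitin ligase gene Ube3a at 59.6 to 114. Nnat, a proteolipid gene, was at 8.89 to 18.9 CPM, Impact, a translation regulator, at 35.7 to 57.0, and Ppp1r9a, an actin-binding scaffold, at 102 to 132.

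The remaining genes of this class were the E3 ligase subunit gene Asb4 at 22.7 to 46.0 CPM, the sarcoglycan gene Sgce at 44.9 to 57.9, the deubiquitinase gene Usp29 at 45.0 to 69.5, the trafficking gene Trappc9 at 20.8 to 32.0 and the potassium channel gene Kcnq1 at 3.10 to 6.38. The antisense or intronic RNAs Kcnq1ot1, Airn and Peg13 lay at 84.5 to 197, 17.9 to 26.3 and 20.3 to 27.4 CPM, and reads of the host genes Kcnq1, Igf2r and Trappc9 could add to their counts. The 5 lowest members stayed below 1 CPM on average. They were Nap1l5, a nucleosome assembly gene, Slc22a18, a transporter gene, Dio3, and Ascl2 and Phlda2, which are best known from the placenta. Phlda2 had 15 counts over all 9 mice. It had 0 counts in KO4 and in WT3, which allows up to 0.0788 and 0.102 CPM from counting error alone.

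The coefficient of variation had a median of 15.3% over the 36 members tested in 9 mice and of 16.4% over all 21735 genes tested. For the 19 members at 100 CPM or more it was 15.1%, against 11.0% over the 1628 genes at that level. H19 varied by 8.26%, Sgce by 7.50% and Gnas by 8.06%, whereas Kcnq1ot1 varied by 22.3%, Peg10 by 22.0% and Magel2 by 27.7%. KO5 lay above the 9-mouse mean for 2 of the 15 maternally expressed members tested and for 8 of the 21 paternally expressed ones. WT3 lay above it for 14 of 15 and 15 of 21. In KO5, Magel2 was at 24.7 CPM against 34.9 to 68.3 in the other mice and Rtl1 at 286 against 380 to 522. KO5 was also the mouse of high adipocyte and Schwann cell markers and of the fewest counts, whose part in these levels was not tested.

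**Figure D2:**
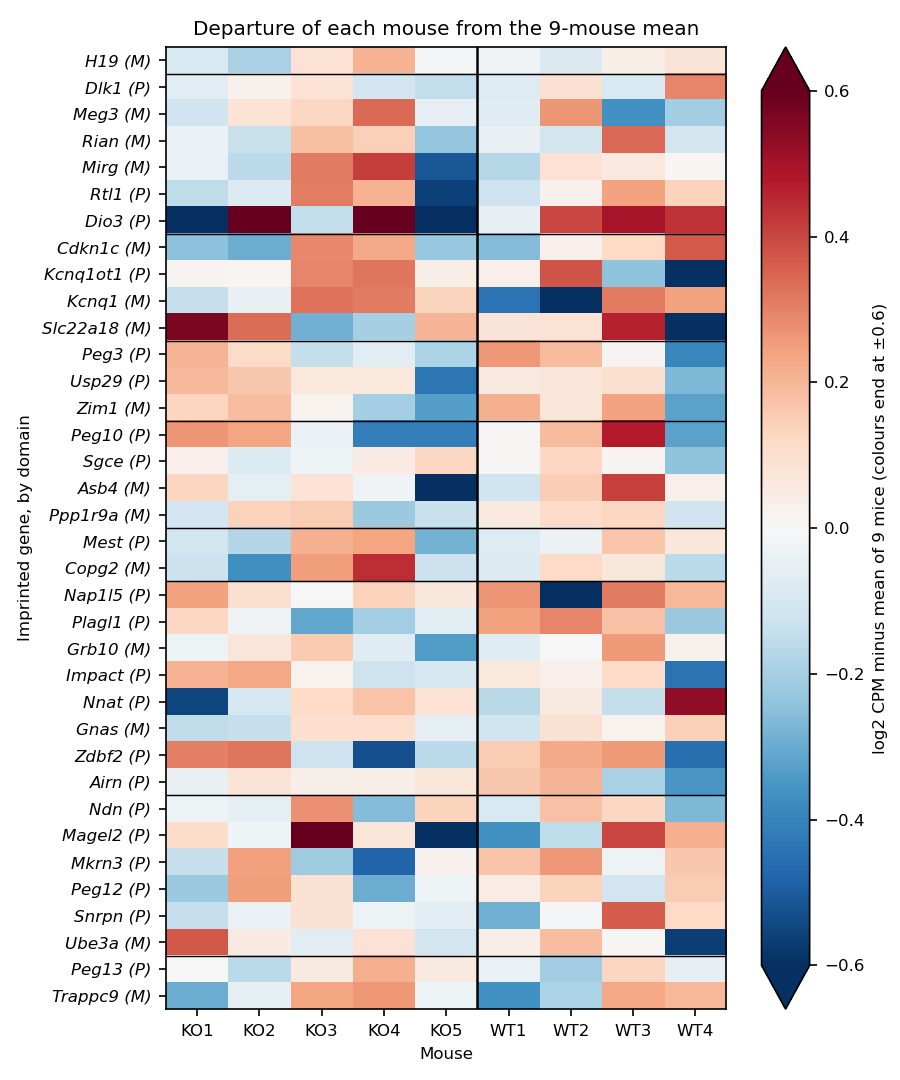
Departure of log2 CPM in each mouse from the mean of the 9 mice for the 36 imprinted genes tested, grouped by domain (P paternally, M maternally expressed; colours end at ±0.6). KO5 is below the mean for 13 of 15 maternally expressed genes, and WT3 is above it for 14.

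The next question was whether paternally and maternally expressed genes rise and fall together over the mice. Over the 9 mice the median correlation (Pearson r of log2 CPM) was 0.02 among the 210 pairs of paternally expressed members, 0.24 among the 105 pairs of maternally expressed members and 0.10 over the 315 pairs of one with the other. Over all pairs of genes tested the median was 0.00. An r above 0.7 was found for 62 of the 630 pairs of members (9.84%) and for 4.06% of pairs over all genes, and an r below -0.7 for 20 (3.17%) and for 3.91%. These shares are not matched for level: 19 of the 36 members lay at 100 CPM or more, against 1628 of the 21735 genes. All of these correlations rest on the same 9 libraries, and pairs that share a gene are not independent, so they are given as a description.

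**Figure D3:**
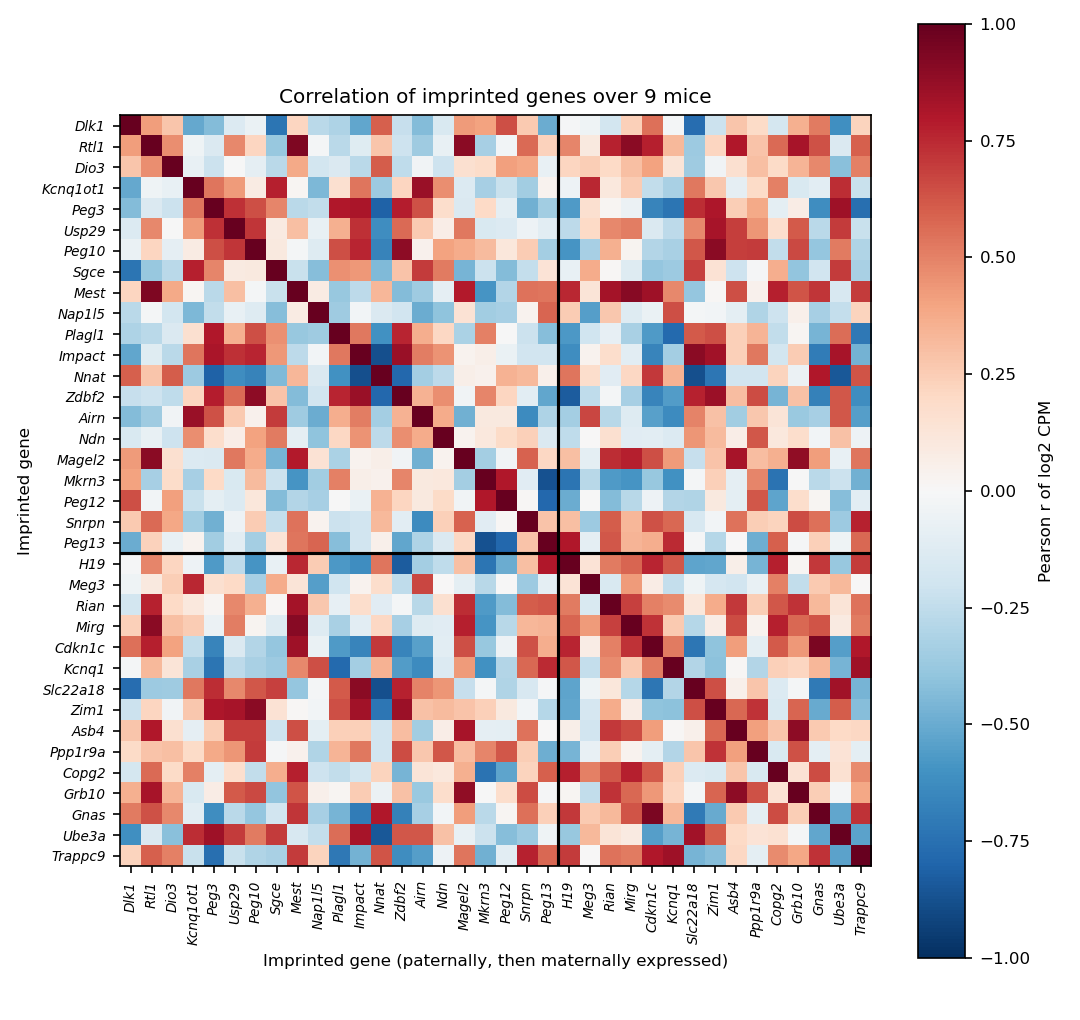
Pearson r of log2 CPM over 9 mice for each pair of the 36 imprinted genes tested, paternally expressed genes first; black lines separate the parental classes. The median r is 0.02 within the paternal, 0.24 within the maternal class and 0.10 between them.

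Of 22 pairs chosen for a shared domain or a known functional link, 21 were tested. The pair of Cdkn1c and Phlda2 was left out, since Phlda2 did not pass the count filter. For the 21, r was tested with a 2-sided exact permutation test over all pairings of the mice. No pair passed after Benjamini-Hochberg adjustment over the 21, and 6 had an unadjusted p below 0.05, of which 4 were neighbours in a domain. Of all 21 pairs, 13 were such neighbours, so 4 of 6 is near the make-up of the list. Peg3 and Zim1 had the highest r, 0.81 (rho = 0.75; exact permutation p = 0.00894 and 0.0255, adjusted 0.0912 and 0.163), and r was 0.68 without WT1 and WT4, the mice farthest from the median of Peg3. Mest and Copg2 followed with r = 0.78 (rho = 0.73; exact permutation p = 0.0134 and 0.0311, adjusted 0.0912 and 0.163), which fell to 0.52 without KO3 and KO4. Their genes overlap at the ends, so shared reads could add to this value. Peg3 and Usp29 gave r = 0.73 (rho = 0.57; exact permutation p = 0.0224 and 0.121, adjusted 0.0940 and 0.253) and 0.70 without WT1 and WT4. Rian and Mirg gave r = 0.68 (rho = 0.67; exact permutation p = 0.0420 and 0.0589, adjusted 0.147 and 0.200) and 0.87 without KO3 and WT3.

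H19 was the partner in the other 2. With Mest it gave r = 0.76 (rho = 0.80; exact permutation p = 0.0174 and 0.0138, adjusted 0.0912 and 0.145), and 0.63 without KO2 and KO4, the mice farthest from the median of H19. With Cdkn1c it gave r = 0.76 (rho = 0.85; exact permutation p = 0.0167 and 0.00607, adjusted 0.0912 and 0.128), and 0.75 without the same mice. H19 ran opposite to Plagl1 and to Peg3, each at r = -0.57 (exact permutation p = 0.106 and 0.111, both 0.237 adjusted), and each at -0.77 without KO2 and KO4. With Dlk1 it gave r = -0.01 and with Grb10 0.02, which were 0.41 and 0.40 without KO2 and KO4. Plagl1 ran opposite to Cdkn1c at r = -0.56 (exact permutation p = 0.113, adjusted 0.237), which was -0.83 with genotype means removed, and gave -0.31 with Dlk1 (-0.01 without WT4).

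The other neighbours had lower values. Peg13 and Trappc9, the gene around it, gave r = 0.57 (exact permutation p = 0.112, adjusted 0.237), Dlk1 and Rtl1 0.42 (0.18 without KO5), Ndn and Snrpn 0.24 (0.09 without WT3) and Snrpn and Ube3a -0.36, the last at -0.80 without WT1 and WT3. Dlk1 and Meg3 gave r = -0.04, Meg3 and Rian -0.15 (0.47 without WT3), Ndn and Magel2 0.04, Peg10 and Sgce 0.10 and Cdkn1c and Kcnq1ot1 -0.25, with exact permutation p between 0.569 and 0.922. Since Xist split the mice into 4 and 5, too few for an r within each, the mean of each of these sets was removed from its mice, an alternative added after seeing the data. Peg3 with Zim1 was then at 0.86, Mest with Copg2 at 0.79, H19 with Mest at 0.75, Rian with Mirg at 0.73, H19 with Cdkn1c at 0.71 and Peg3 with Usp29 at 0.51. Snrpn with Ube3a then turned to 0.17, and Plagl1 with Cdkn1c was at -0.43.

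**Figure D4:**
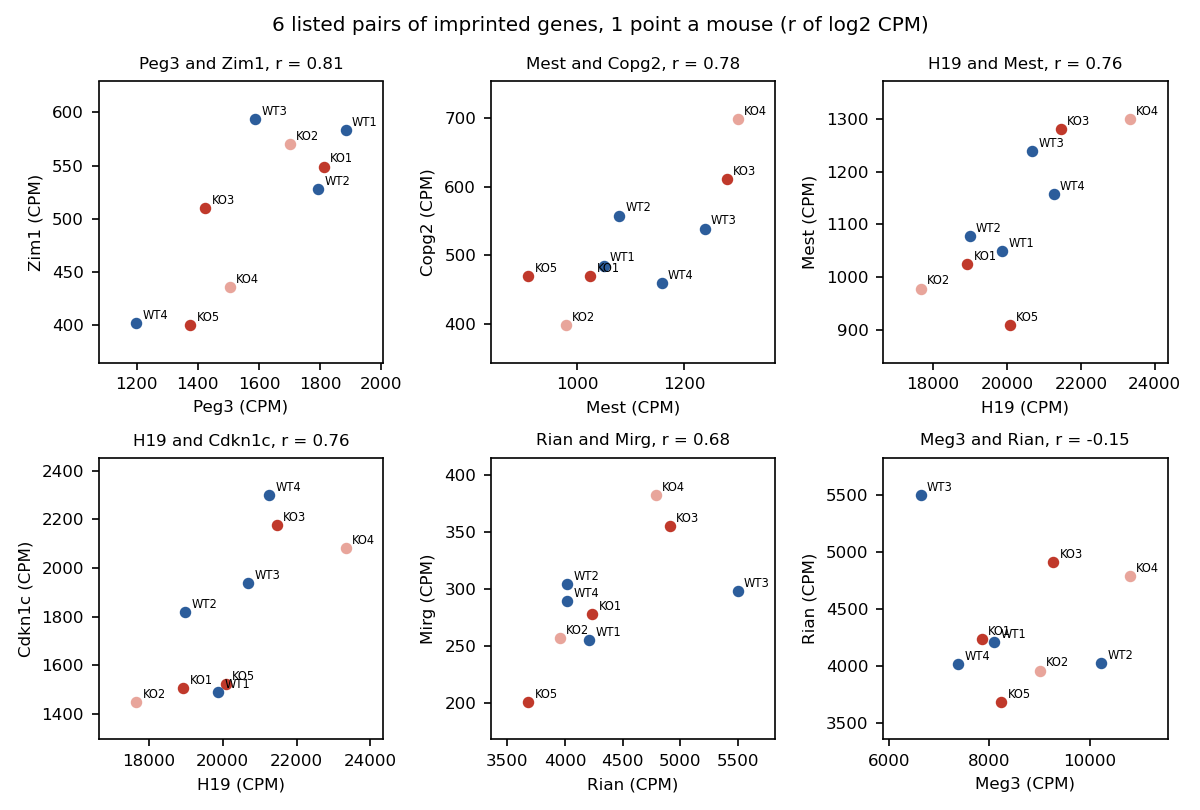
CPM of both genes of 6 listed pairs, 1 point a mouse, labelled by mouse (red Shank3Δ11(−/−), pale red KO2 and KO4, blue Shank3(+/+)). For Peg3 and Zim1 r was 0.81 (adjusted exact permutation p = 0.0912), and for Meg3 and Rian it was -0.15, or 0.47 without WT3, the mouse at the lowest Meg3 and the highest Rian.

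Peg3 and Usp29 start back to back, and the 146 bases between their annotated starts are shown as the stretch that both genes share. The sequence is from RefSeq (GRCm38.p6, chr7:6730432-6730577, plus strand), with its 5 CG sites in capitals.
Peg3 to Usp29: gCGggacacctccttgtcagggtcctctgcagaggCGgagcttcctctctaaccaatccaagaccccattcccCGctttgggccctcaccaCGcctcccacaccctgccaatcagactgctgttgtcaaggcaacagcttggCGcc

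Control regions of imprinted domains are bound, when methylated, by the zinc finger protein ZFP57 at the letters TGCCGC. RefSeq windows from 250 bases before to 50 after a start were found for 29 of the 38 members and searched for TGCCGC on both strands, that is also for GCGGCA. H19, Rtl1, Cdkn1c, Kcnq1, Peg10, Sgce, Impact, Peg13 and Trappc9 had no window. The letters were present for 10 of the 29 members (34.5%), for 6 of 16 paternally and 4 of 13 maternally expressed ones, and for 13.1% of the 27025 genes with a window. A gene can have several windows, and by window they were present in 11 of 42 for the members and in 11.6% of all 32851. The 10 were Copg2, Grb10, Meg3, Mest, Nap1l5, Nnat, Plagl1, Snrpn, Zdbf2 and Zim1. A match describes the letters and not a bound site, and methylation was not measured. The window of Meg3 (chr12:109540746-109540995, plus strand) and that of an upstream start of Zdbf2 (chr1:63200108-63200357, plus strand), which holds the letters 3 times, are printed as examples up to the start, with the motif in capitals.
Meg3: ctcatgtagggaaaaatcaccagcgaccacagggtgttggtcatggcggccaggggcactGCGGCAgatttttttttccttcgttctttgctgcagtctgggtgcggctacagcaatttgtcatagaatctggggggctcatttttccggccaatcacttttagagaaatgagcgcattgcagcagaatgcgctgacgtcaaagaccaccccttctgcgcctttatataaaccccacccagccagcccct
Zdbf2: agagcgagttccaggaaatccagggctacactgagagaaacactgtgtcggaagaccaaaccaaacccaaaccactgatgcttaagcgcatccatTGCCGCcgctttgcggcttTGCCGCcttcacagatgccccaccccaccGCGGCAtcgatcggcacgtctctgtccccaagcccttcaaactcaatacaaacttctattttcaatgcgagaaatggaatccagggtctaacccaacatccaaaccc

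The comparison of Shank3Δ11(−/−) with Shank3(+/+) asks whether the imprinted genes depend on Shank3 in newborn muscle. In edgeR's quasi-likelihood test of 3 against 4 mice, 37 members were tested. The study's criterion, an unadjusted p below 0.05 together with an FDR below 25%, was met by 0 of them and by 0 of all 21809 genes tested (0%). The study reports differentially expressed genes at this criterion, with limma as its test. Limma-voom on the 7 mice called 0 of 21809 genes here, and the cause of the difference from the study was not tested. At an unadjusted p below 0.05 there was 1 member, Dio3, against 453 of all genes (2.08%). With 5 against 4 mice, 36 members were tested and none had p below 0.05, against 442 of 21735 genes (2.03%), and none of the 36 was without overlap between the genotypes, against 149 genes (0.686%). DESeq2 on the 7 mice gave 0 members at p below 0.05, against 393 of 21809 genes, with Dio3 at a log2 fold change of -1.33. Of the 37 members, 13 had a log2 fold change above and 24 below 0, beside 10414 and 11395 of all genes. The median was -0.06, beside -0.01 over all genes. With 9 mice the counts were 16 and 20, beside 10979 and 10756, and the median -0.04, beside 0.00.

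The intervals bound how large a difference could have been. The 95% confidence interval stayed within 2-fold in either direction for 34 of 37 members with 7 mice and for 35 of 36 with 9. It stayed within 1.5-fold for 25 and 30. Over all genes tested, it stayed within 2-fold for 18041 of 21809 with 7 mice and for 19065 of 21735 with 9. Within 1.5-fold these were 12527 and 13998. H19 differed by a log2 fold change of -0.01 (SE 0.12, 95% interval -0.29 to 0.26, edgeR p = 0.925, FDR = 1.00; exact permutation p = 0.971) with 7 mice and of 0.01 (-0.23 to 0.25) with 9. The log2 fold changes with 7 mice were -0.13 for Cdkn1c (-0.53 to 0.27), -0.11 for Dlk1 (-0.41 to 0.19) and 0.06 for Meg3 (-0.30 to 0.41). The total of all members was 4.75% ± 0.374 (SD, n = 3) of counts in Shank3Δ11(−/−) and 4.91% ± 0.0441 (SD, n = 4) in Shank3(+/+).

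**Figure D5:**
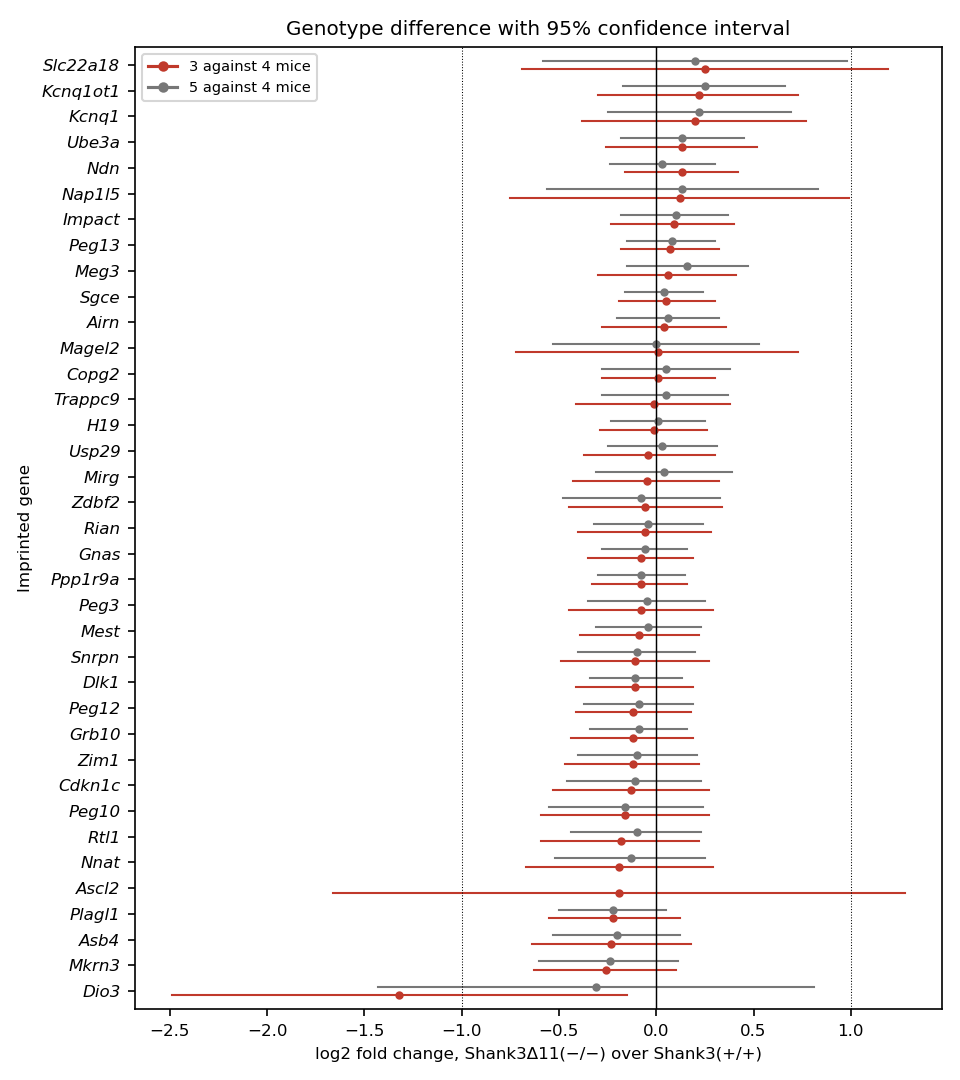
Log2 fold change of each imprinted gene, Shank3Δ11(−/−) over Shank3(+/+), from edgeR with its 95% confidence interval, for 3 against 4 mice (red, 37 genes) and 5 against 4 mice (grey, 36 genes); dotted lines mark a 2-fold difference. Of the 7-mouse intervals, the one of Dio3 (-2.49 to -0.15) excludes 0, and its 9-mouse interval (-1.43 to 0.81) does not.

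Dio3 (ENSMUSG00000075707, chr12:110279068-110281097) was at 0.0313 CPM in KO1, 0.283 in KO3 and 0.190 in KO5, and at 0.308, 0.443, 0.478 and 0.455 CPM in WT1 to WT4. These 3 mice lay below all Shank3(+/+) mice, which held for 619 of all genes tested in either direction (2.84%). KO2 and KO4, however, had the highest levels of the 9 mice, at 0.611 and 0.552 CPM. The log2 fold change was -1.32 (SE 0.53, edgeR p = 0.0302, FDR = 1.00; exact permutation p = 0.0286, the smallest that 3 against 4 mice allow) with 7 mice and -0.31 (SE 0.52, edgeR p = 0.555, FDR = 1.00; exact permutation p = 0.429) with 9. Leaving out KO1, KO3, KO5, WT1, WT3 or WT4 in turn, the log2 fold change ranged from -1.97 (without KO3) to -0.81 (without KO1, which had 1 count). The gene rested on 1 to 21 counts a mouse.

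Phlda2, which restrains placental growth, also did not overlap between the 7 mice, with 3, 4 and 3 counts in KO1, KO3 and KO5 and 1, 2, 0 and 1 counts in WT1 to WT4. It was too low to be tested in edgeR, and KO2 and KO4 had 1 and 0 counts. With 9 mice the smallest p of the members tested was that of Plagl1, 0.0997 (log2 fold change -0.22, SE 0.13, 95% interval -0.50 to 0.05, FDR = 1.00, edgeR), and all 5 Shank3Δ11(−/−) mice lay below its Shank3(+/+) mean. With 7 mice its log2 fold change was likewise -0.22 (edgeR p = 0.181, exact permutation p = 0.286).

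Other genes of the pathway were taken as listed with the members. Of 44 further imprinted genes, 37 were tested, none with p below 0.05 with 7 mice and 1 with 9 mice, in edgeR, beside 2.08% and 2.03% of all genes. That gene was Cd81, a tetraspanin gene near Kcnq1ot1, at 203, 267, 302, 316 and 261 CPM in KO1 to KO5 and at 187, 196, 206 and 229 CPM in WT1 to WT4 (log2 fold change 0.40, SE 0.13, edgeR p = 0.00747, FDR = 1.00; exact permutation p = 0.0397), with a log2 fold change of 0.31 for 7 mice. KO1 lay among the Shank3(+/+) mice. Igf2, the fetal growth factor that shares its enhancers with H19, was at 4395 to 6082 CPM, and its ratio to H19 was steady, with H19 at 3.60 to 4.52 times the CPM of Igf2. Igf2r, its clearance receptor, was at 304 to 480 CPM. Of 24 genes that set or keep imprints, 22 were tested and none had p below 0.05 in either edgeR fit. The methyltransferase gene Dnmt1 was at 49.1 to 71.3 CPM, the corepressor gene Trim28 at 173 to 223, and Zfp57 at 23.0 to 34.5.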

How the data were processed

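The authors aligned reads to mm10 (HISAT2), retained concordant alignments and deposited raw read counts per gene from featureCounts (Subread). The sources used here do not give the annotation release, strandedness or handling of multi-mapping reads. Symbols, positions and exon lengths came from GENCODE M21 (GRCm38), microRNAs and promoters from RefSeq (GRCm38.p6). CPM were scaled by TMM over 9 mice, and log2 CPM took a prior count of 2. Genes passing filterByExpr (minimum count 10, minimum total count 15) were tested 2-sided in edgeR 4.0.16 (R 4.3.3, robust quasi-likelihood) with Benjamini-Hochberg adjustment over all genes tested (FDR). Exact permutation tests used log2 CPM, with all 362880 pairings for correlations and pairings within sets (2880) where set means were removed. Tests were checked on simulated data. Per-mouse values are given for the 10 members of highest level per kilobase, those with p below 0.05 and those whose 7 mice did not overlap. Members and lists were chosen with earlier results of these data known. P-values cover the spread between the mice sequenced. Limits for 0 counts take 3 counts a library and cover counting error only. Alternatives were 9 mice, filters, normalizations, DESeq2 1.42.0, limma-voom 3.58.1, replicate block, Xist covariate and leaving out each mouse.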

Additional observations from a re-analysis of the deposited data

Results flagged for a closer look

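For each of the 38 members the highest and lowest mouse of each genotype was set against the others of that genotype by Dixon's ratio, the gap to the nearest mouse over the range of the genotype. Of 76 groups 4 exceeded the 95% critical value, where chance gives about 3.80. Rian was highest in WT3, at 5496 CPM against 4016 to 4207 in the other Shank3(+/+) mice (ratio 0.871). Usp29 was lowest in KO5, at 45.0 CPM against 63.5 to 69.5 in the other Shank3Δ11(−/−) mice (ratio 0.755), and lowest in WT4, at 50.3 CPM against 63.2 to 65.1 (ratio 0.873). Nap1l5 was lowest in WT2, at 0.266 CPM against 0.878 to 0.955 (ratio 0.888), which corresponds to 9 counts against 27 to 30.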

How the results depend on the processing

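No member was called under any alternative run, while 0 to 15 of all genes tested were, 6 in DESeq2, 9 in the 7-mouse replicate block and 15 without KO1. The number with an unadjusted p below 0.05, which was 1, became 0 with all 9 mice, with at least 10 counts in every mouse, in DESeq2 and with the Xist covariate in 9 mice, and 0 to 2 leaving out each mouse: it was 0 without KO1, KO5, WT2 or WT3, and 2 (Dio3 and Rtl1) without KO3, where 794 of 22244 genes had p below 0.05. Without WT4 it was 1 member, Plagl1, in place of Dio3. With the replicate number as a replicate block it was 4 with 7 mice (Dio3, Ascl2, Plagl1 and Magel2, at log2 fold changes of -1.39, -1.71, -0.31 and 0.33, edgeR FDR = 0.998 each) and 0 with 9, where 844 of 21809 and 452 of 21735 genes had p below 0.05, against 453 of 21809 without the block. Dio3 held a log2 fold change of -1.33 in DESeq2, -1.41 without KO5, -1.25 without WT3 and -1.27 without WT4. It was -0.81 without KO1, and it was not tested with at least 10 counts in every mouse or without WT2. Same-numbered mice were not taken as pairs, since the labels give no meaning to the number and their departures correlated at 0.37, 0.05, 0.36 and 0.10. KO2 and KO4 were excluded from the first fit. KO1, KO3 and KO4 correlated best with the Shank3(+/+) mouse of their own number, and KO2 did not. The median log2 fold change of the members ranged from -0.15 (without KO3) to 0.00 leaving out each mouse. With the replicate block this median was -0.01 with 7 mice and 0.01 with 9. Of 207 alternative log2 fold changes of the named members 17 changed sign, all of members that were not called. H19 was at 0.01 with 9 mice and 0.02 with the Xist covariate in 9 mice. Under the replicate block Cdkn1c was at 0.09, Dlk1 at 0.09 and Gnas at 0.02 with 7 mice, and Mest at 0.01, Rian at 0.02 and Peg3 at 0.01 with 9. Leaving out each mouse, H19 ranged from -0.06 to 0.03, Meg3 from -0.02 to 0.19, Mest from -0.24 to 0.02, Rian from -0.17 to 0.07 and Peg3 from -0.21 to 0.01. Without a change of sign, Cdkn1c ranged from -0.33 (without KO3) to -0.02 (without WT4), Dlk1 from -0.18 (without KO3) to -0.02 (without WT4) and Plagl1 from -0.32 (without KO1 or WT4) to -0.11 (without KO3). The causes were not tested.

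Of 294 alternative correlations of the listed pairs 22 changed sign and 1 passed the adjusted threshold, H19 with Mest at 0.92 without KO5, so that the count of pairs that passed was 0 to 1 leaving out each mouse. H19 with Dlk1 was at 0.41 with 7 mice, H19 with Grb10 at -0.01 with RLE normalization, and Dlk1 with Meg3 at 0.17 with 7 mice and 0.12 with genotype means removed. With Xist-set means removed, H19 with Grb10 was at -0.04, Dlk1 with Meg3 at 0.10, Ndn with Magel2 at -0.03 and Snrpn with Ube3a at 0.17. Leaving out each mouse, r ranged from -0.33 to 0.27 for H19 with Dlk1, 0.66 to 0.92 for H19 with Mest, -0.09 to 0.17 for H19 with Grb10, -0.24 to 0.39 for Dlk1 with Meg3, -0.41 to 0.47 for Meg3 with Rian (0.47 without WT3), -0.37 to 0.36 for Peg10 with Sgce, -0.43 to 0.44 for Cdkn1c with Kcnq1ot1, -0.34 to 0.37 for Ndn with Magel2, -0.51 to -0.01 for Plagl1 with Dlk1 (-0.63 with genotype means removed), 0.18 to 0.56 for Dlk1 with Rtl1, 0.09 to 0.45 for Ndn with Snrpn and -0.56 to -0.26 for Snrpn with Ube3a. The median r within the paternal class was 0.05 with genotype means removed and -0.01 to 0.06 leaving out each mouse. Within the maternal class it was 0.31 with 7 mice, 0.30 with Xist-set means removed and 0.20 to 0.26 leaving out each mouse. Between the classes it was 0.20, 0.13 and 0.06 to 0.12. The number of member pairs with r below -0.7, 20 of 630, ran from 16 (without KO4) to 31 (without KO5) leaving out each mouse. It was 28 with genotype means removed and 14 with Xist-set means removed.

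Depth limits the lowest members: Dio3 had 107, Ascl2 75 and Phlda2 15 counts over the 9 mice, and the 95% interval of Ascl2 with 7 mice ran from -1.66 to 1.28.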

Other observations

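Chosen after their values were seen, and given with no test, the highest correlations among the 630 pairs of members were Cdkn1c with Gnas at r = 0.94, Rtl1 with Mest at 0.93, Mirg with Mest at 0.91, and Rtl1 with Magel2, Zim1 with Peg10, Slc22a18 with Impact and Mirg with Rtl1 at 0.90. The lowest were Impact with Nnat and Slc22a18 with Nnat, each at -0.88, Mkrn3 with Peg13 at -0.87, Ube3a with Nnat at -0.85 and H19 with Zdbf2 at -0.83. All rest on the same 9 libraries, and Slc22a18, at 6 to 27 counts a mouse, is imprecise.

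Between the 4 mice of high and the 5 of low Xist, 1 of the 36 members tested did not overlap (2.78%), against 2.36% of all genes tested. It was Ube3a, at 59.6 to 88.5 CPM in the former and 90.7 to 114 CPM in the latter. KO4, at 3.23 CPM of Xist, differed from the other mice of low Xist (0.136 to 0.219 CPM). Without it, an alternative chosen after seeing the data, 5 of the 36 members did not overlap (13.9%), H19, Kcnq1, Peg3, Ube3a and Trappc9, against 11.8% of all genes tested.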
